A study of Rattus norvegicus with 16 samples.

Results

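The genes described here build the machinery with which the endoplasmic reticulum (ER) takes in, folds, checks and passes on secreted proteins. They were chosen by symbol from a list of 58 genes of known role in that machinery, by a rule that uses no measured value, although earlier results of these data were known when the list was drawn up. Of these, 56 were among the 17055 gene symbols of the count tables, while Edem1 and Derl2 were not found there. All 56 passed the filter on low counts in every comparison. They comprised 9 chaperones and co-chaperones, 3 genes of glycoprotein folding, 7 of disulfide formation, 5 stress sensors and transcription factors, 8 of ER-associated degradation (ERAD), 9 of the translocon, 4 of signal peptidase, 6 of the signal recognition particle (SRP) and its receptor, and 5 of oligosaccharyltransferase.

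The liver makes most plasma proteins, and nearly all of them enter the ER through the translocon as they are made. There signal peptidase removes the signal sequence, oligosaccharyltransferase attaches glycans, and chaperones and disulfide-forming enzymes fold the chain, while chains that fail are sent to ERAD. When unfolded chains accumulate, the ER membrane sensors encoded by Ern1 (IRE1), Eif2ak3 (PERK) and Atf6 start the unfolded protein response (UPR), in which ATF6 and the spliced product of Xbp1 raise transcription of chaperone and ERAD genes through promoter elements called ERSE.

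RNA from the liver of 48 male Sprague-Dawley rats, 10 weeks old, was sequenced as 16 libraries, each a pool of 3 rats, in 4 groups of 4 libraries. Isoflurane+sepsis (libraries 1 to 4) and the isoflurane controls (5 to 8) received isoflurane for induction and maintenance, whereas Propofol+sepsis (9 to 12) and the propofol controls (13 to 16) were induced with ketamine and xylazine and kept under propofol. Septic rats underwent cecal ligation and puncture, and controls had a sham celiotomy in which the cecum was lifted out and put back. Anesthesia was kept up for 8 h after celiotomy, and liver was taken directly after death. The question for these genes was whether sepsis changed their transcripts in each anesthetic, and whether the change differed between anesthetics.

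Levels are given as CPM, a depth-scaled count of a gene's reads relative to all reads on genes, with library totals adjusted by TMM. CPM is not divided by transcript length, so levels were compared between libraries and not between genes. Each library held between 14199420 and 49937170 reads on genes. Summed hepatocyte markers (10 genes) were at 151964 to 162504 CPM in isoflurane controls, 131178 to 151482 in Isoflurane+sepsis, 113453 to 125557 in propofol controls and 108506 to 122068 in Propofol+sepsis. Summed neutrophil and monocyte markers (11 of 12 genes found, Ly6c at 0) were at 164 to 216, 1291 to 2116, 408 to 669 and 1196 to 3315 CPM in the same order. Of the markers tested, sepsis under isoflurane raised 8 of 10 neutrophil and monocyte, 6 of 8 Kupffer cell and 1 of 10 hepatocyte genes. It lowered 4 of 6 endothelial, 4 of 10 hepatocyte and 1 of 8 Kupffer cell genes. Of all genes tested, 25.7% rose and 24.4% fell. Under propofol sepsis raised 7 of 10 neutrophil and monocyte, 3 of 8 Kupffer cell, 1 of 6 endothelial and 1 of 10 hepatocyte genes. It lowered 2 of 6 endothelial, 2 of 10 hepatocyte and 1 of 8 Kupffer cell genes, where 20.4% of all genes rose and 21.7% fell. The part of these cells in the results was not tested. In bulk tissue, fewer cells of a type and less RNA per cell cannot be told apart. Since each library is a pool, p-values measure the spread between pools and not between rats. Isoflurane and propofol libraries also carry different library codes, so the anesthetic, the induction drugs and library handling cannot be told apart.

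The promoters of these genes are shown because the UPR acts through promoter elements. RefSeq promoters (build GRCr8, 250 bases before to 50 bases after the transcription start) were matched for 48 of the 56 genes, Ero1lb, Srp54 and Srpr under the current symbols Ero1b, Srp54a and Srpra. ERSE was searched on both strands as CCAAT, then any 9 bases, then CCACG. It was present in 9 of the 48 promoters (18.75%) and in 21 of 27457 genes with a promoter entry (0.0765%). Each line gives the gene, the position and strand of the printed stretch, and the stretch itself read along the gene's strand, with the element in capitals and 15 bases on each side.
Hspa5 (chr3:38452958-38453006, plus strand): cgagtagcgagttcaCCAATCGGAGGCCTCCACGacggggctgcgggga
Hsp90b1 (chr7:23012436-23012484, minus strand): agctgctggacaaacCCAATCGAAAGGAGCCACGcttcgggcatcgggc
Hsp90b1 (chr7:23012332-23012380, minus strand): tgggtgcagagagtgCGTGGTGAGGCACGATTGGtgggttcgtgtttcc
Dnajc3 (chr15:102432519-102432567, plus strand): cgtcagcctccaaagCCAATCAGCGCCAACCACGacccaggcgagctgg
Creld2 (chr7:121789224-121789272, plus strand): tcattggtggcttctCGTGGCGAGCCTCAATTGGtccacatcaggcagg
Calr (chr19:40213120-40213168, plus strand): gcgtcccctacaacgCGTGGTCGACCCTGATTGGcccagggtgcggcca
Canx (chr10:35158054-35158102, minus strand): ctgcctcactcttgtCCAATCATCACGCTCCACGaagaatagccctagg
Ero1lb (chr17:92941443-92941491, plus strand): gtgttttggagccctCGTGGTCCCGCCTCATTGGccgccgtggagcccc
Xbp1 (chr14:84604543-84604591, plus strand): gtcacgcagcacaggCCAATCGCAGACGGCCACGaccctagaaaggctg
Derl3 (chr20:12766586-12766634, minus strand): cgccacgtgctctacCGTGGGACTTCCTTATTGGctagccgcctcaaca

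In Creld2, Calr, Ero1lb, Derl3 and the nearer site of Hsp90b1 the element lies on the opposite strand, so it reads CGTGG, 9 bases, ATTGG. The element began 43 bases before the start in Hspa5, 65 in Xbp1 and 133 in Dnajc3, and 176 and 72 bases before it in Hsp90b1, the only one of these 9 genes with more than 1 copy in the window. A related element, ERSE-II (ATTGG, any 1 base, CCACG), was present in 3 of the 48 promoters (6.25%) and in 17 of the 27457 (0.0619%). Its 4 copies in these genes are shown in the same way.
Hyou1 (chr8:53602679-53602719, plus strand): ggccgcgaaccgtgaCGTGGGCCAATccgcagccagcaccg
Hyou1 (chr8:53602779-53602819, plus strand): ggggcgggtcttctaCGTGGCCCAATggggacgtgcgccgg
Dnajb11 (chr11:91672785-91672825, minus strand): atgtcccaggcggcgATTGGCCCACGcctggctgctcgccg
Herpud1 (chr19:10614806-10614846, minus strand): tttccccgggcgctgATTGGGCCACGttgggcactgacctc

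The farther copy in Hyou1 overlaps a match to the third element searched, UPRE (TGACG followed by TGG), which was found in 2 of the 48 promoters (Hyou1 and Vcp, 4.17%) and in 187 of 27457 (0.681%). ERSE and ERSE-II together marked 12 genes, 25% of the promoters matched and 0.138% of all. Chaperone and ERAD genes, on which ERSE is known to act, are in the list by its making. The shares are therefore no test of enrichment. A match of letters is a description of the window and not proof of a working site. The roles of these 12 genes were unequal, as 6 are chaperones and co-chaperones, Calr and Canx are lectin chaperones of glycoprotein folding, and none belongs to the translocon, signal peptidase, SRP or oligosaccharyltransferase.

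Under propofol, sepsis was accompanied by higher transcripts across most of this machinery. Of the 56 genes, 40 rose and 1 (Creb3l3) fell (edgeR quasi-likelihood test, adjusted p below 0.05), where 20.4% of all 10348 genes tested rose and 21.7% fell. The median log2 fold change of the 56 genes was 0.31, against -0.0016 for all genes tested. In 42 of the genes every Propofol+sepsis library was above every control, and in 1 every one was below, where 21.2% and 21.1% of all genes tested showed this. The rise reached 9 of 9 chaperones, 7 of 7 disulfide genes, 3 of 3 glycoprotein-folding genes, 5 of 8 ERAD genes, 6 of 9 translocon genes, 2 of 4 signal peptidase genes, 2 of 6 SRP genes and 3 of 5 oligosaccharyltransferase genes. With all 16 libraries in 1 fit, 29 rose and 1 fell, where 19.4% and 19.2% of all genes did. When scaled by library totals only, 34 rose and 1 fell, where 16.2% and 26.1% did.

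Under isoflurane the share of these genes that rose was that of all genes. Of the 56, 14 rose (25%, where 25.7% of all 10361 genes did), and 2 (Creb3l3 and Srp68) fell, where 24.4% of all genes did. The median log2 fold change was 0.16, against 0.0061 for all genes tested. Sepsis and control libraries did not overlap for 7 genes that were higher and 3 that were lower, where 24.3% and 24.4% of all genes did not overlap. Chaperones made up 6 of the 14 risers (6 of 9 rose), followed by 3 of 7 disulfide genes, 3 of 8 ERAD genes, Eif2ak3 among the sensors, and Sec11c of signal peptidase. None of the 9 translocon, 5 oligosaccharyltransferase, 3 glycoprotein-folding or 6 SRP genes rose. When scaled by library totals only, 7 rose and 5 fell, where 21.6% and 28.6% of all genes did.

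Grouped by place in the pathway, the 24 genes of entry and glycosylation (SRP, translocon, signal peptidase and oligosaccharyltransferase) had a median log2 fold change of 0.01 under isoflurane, with 1 rise and 1 fall, and 0.17 under propofol, with 13 rises and no fall. The other 32 genes had a median of 0.29 under isoflurane, with 13 rises and 1 fall, and 0.44 under propofol, with 27 rises and 1 fall. All 14 genes that rose under isoflurane also rose under propofol, which is 100% of the isoflurane list and 35% of the propofol list. Over all genes tested in both, 1459 rose in both, 54.9% of the isoflurane risers and 69.2% of the propofol risers. Another 26 of the 56 genes were called higher under propofol alone, and 14 were called in neither anesthetic.

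**Figure D1:**
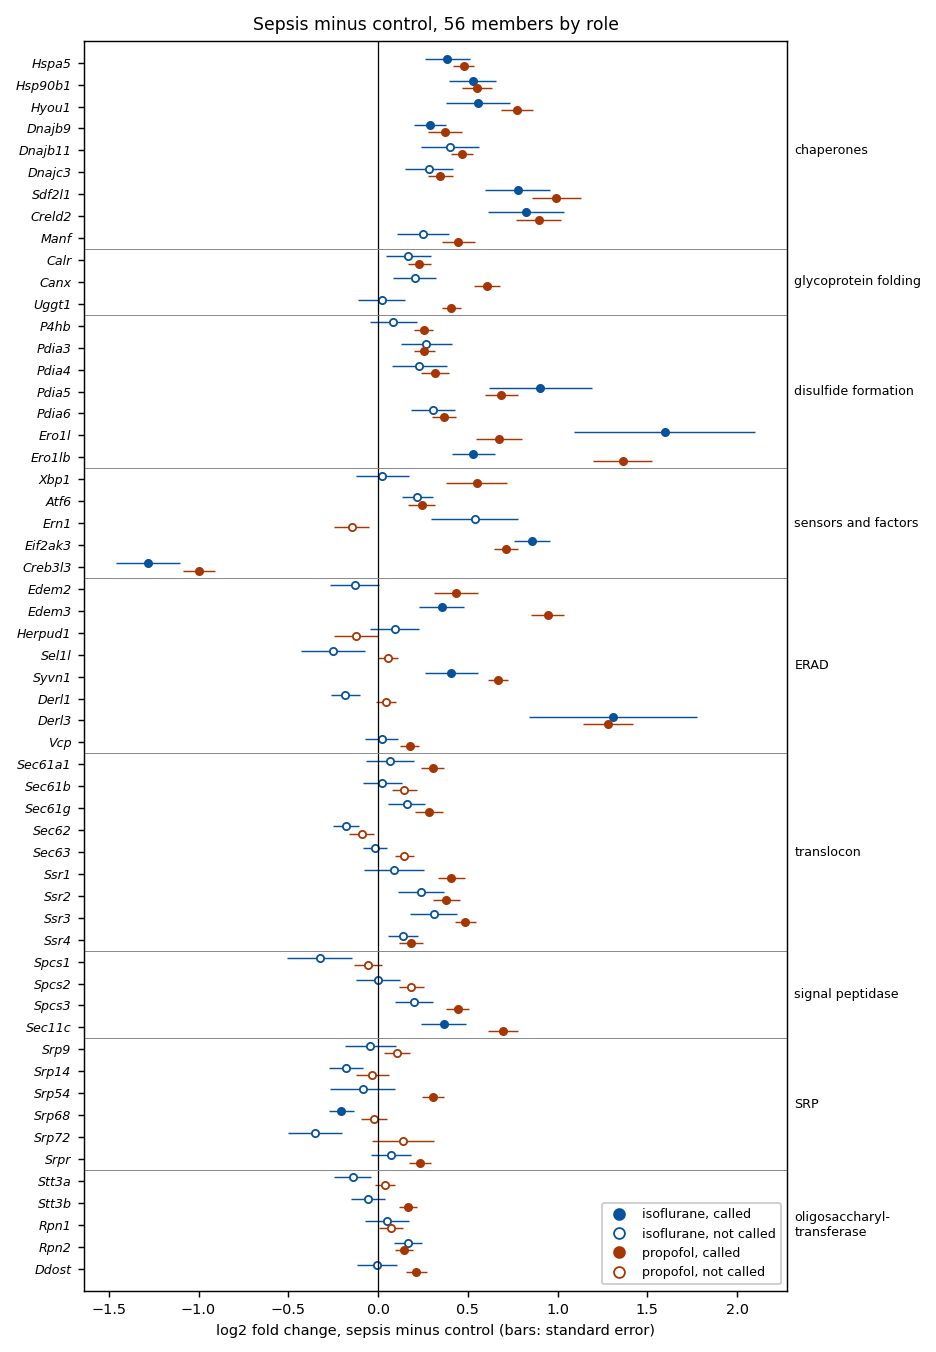
Log2 fold change, sepsis minus control (horizontal axis), of the 56 genes ordered by role (vertical axis), in blue for isoflurane and in orange-brown for propofol. Filled points passed an adjusted p of 0.05 and bars are standard errors. Filled propofol points run through every role with 40 above 0, whereas the 14 filled isoflurane points above 0 lie mostly among the chaperones, disulfide genes and ERAD genes, with wider bars.

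Of the 14 genes that rose in both anesthetics 6 were chaperones and co-chaperones. Hspa5 encodes BiP, the HSP70 chaperone of the ER lumen and the protein that holds the UPR sensors inactive. It stood at 2349, 2345, 2231 and 2269.6 CPM in the isoflurane controls and at 3694, 3087, 2243 and 3001 CPM in Isoflurane+sepsis libraries 1 to 4. Libraries 1, 2 and 4 were above all controls, and library 3 lay within them. This gave 3006 ± 595 against 2299 ± 58.2 CPM (SD, n = 4 each) and a log2 fold change of 0.39 (standard error, SE, 0.124, adjusted p = 0.0286, edgeR). Under propofol Hspa5 was at 1970.2, 2055, 1824 and 1974 CPM in controls and 2618, 2658, 2800.2 and 2861 CPM after sepsis. Here all septic libraries were above all controls, and the log2 fold change was 0.48 (SE 0.0582, adjusted p = 0.000251, edgeR).

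Hsp90b1 encodes GRP94, the HSP90 of the ER. Its levels were 1737, 1792, 1629.8 and 1777 CPM in isoflurane controls and 3130.2, 2625, 1884 and 2363 CPM in libraries 1 to 4, so that each septic library, library 3 included, exceeded each control. The log2 fold change was 0.53 (SE 0.130, adjusted p = 0.00931, edgeR) under isoflurane and 0.55 (SE 0.0852, adjusted p = 0.000822) under propofol, where controls ran from 1320.2 to 1742 CPM and septic libraries from 2190 to 2380.4. Hyou1, the exchange factor that resets BiP, was at 695 to 762 CPM in isoflurane controls and at 1478, 1079, 713 and 1013 CPM in libraries 1 to 4, with library 3 again within the controls. It rose by 0.56 (SE 0.178, adjusted p = 0.0278) under isoflurane and by 0.77 (SE 0.0897, adjusted p = 0.000197) under propofol.

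The largest fold changes among the chaperones were those of Sdf2l1 and Creld2 in both anesthetics. Sdf2l1, whose product works with BiP and its J-domain partners, rose from 63.8 ± 4.59 to 109 ± 32.4 CPM under isoflurane, a log2 fold change of 0.78 (adjusted p = 0.00708, edgeR). Under propofol it rose from 45.8 ± 9.0 to 91.6 ± 9.21 CPM (log2 fold change 0.99, adjusted p = 0.000443, edgeR). Creld2, an ER protein with disulfide-exchange activity, stood at 420, 288, 178 and 262 CPM in libraries 1 to 4 against 151 to 172 CPM in isoflurane controls, and at 228 to 247 against 98.5 to 152 CPM under propofol. In neither anesthetic did the libraries of Creld2 overlap, and its log2 fold changes were 0.82 (adjusted p = 0.0108) and 0.89 (adjusted p = 0.000452). Dnajb9, a J-domain partner of BiP, rose by 0.29 (adjusted p = 0.0240) and 0.37 (adjusted p = 0.0103). Dnajb11, Dnajc3 and Manf rose under propofol (log2 fold changes 0.47, 0.35 and 0.45) and were at 0.40, 0.28 and 0.25 under isoflurane without passing the test.

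The 3 genes of glycoprotein folding rose under propofol, and none passed the test under isoflurane. Canx, the membrane-bound lectin chaperone calnexin, was at 1173, 1187, 1069 and 1085 CPM in isoflurane controls and 1591, 1402, 1070.4 and 1137 CPM in libraries 1 to 4. Libraries 3 and 4 lay within the controls, and the log2 fold change of 0.20 did not pass (adjusted p = 0.183, edgeR). Under propofol Canx rose from 856 ± 58.7 to 1309 ± 91.5 CPM, by 0.61 (SE 0.0713, adjusted p = 0.000212, edgeR). Uggt1, the enzyme that marks unfolded glycoproteins for another round, was at 0.02 (adjusted p = 0.911) under isoflurane and 0.41 (adjusted p = 0.000380) under propofol. Calr, the soluble lectin chaperone calreticulin, was at 0.17 (adjusted p = 0.290) and rose by 0.23 (adjusted p = 0.0165).

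Among the disulfide genes, those called in both anesthetics were Pdia5 and the ER oxidases Ero1l and Ero1lb, which re-oxidise protein disulfide isomerase. Ero1l, the ERO1-alpha oxidase, stood at 35.3, 39.6, 32.8 and 37.6 CPM in isoflurane controls and at 51.1, 102, 240.5 and 41.0 CPM in libraries 1 to 4. All septic libraries exceeded the controls, but library 3 stood far above the rest (109 ± 91.8 against 36.4 ± 2.94 CPM). The log2 fold change of 1.60 (SE 0.504, adjusted p = 0.0265, edgeR) became 0.83 (adjusted p = 0.0389) without library 3. Under propofol Ero1l rose by 0.67 (SE 0.129, adjusted p = 0.00259), from 31.0 ± 1.31 to 49.8 ± 10.5 CPM.

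Ero1lb, the ERO1-beta oxidase, was at 55.9, 63.4, 52.5 and 57.6 CPM in isoflurane controls and 87.3, 76.1, 67.2 and 100.6 CPM after sepsis, an increase of 0.53 (SE 0.119, adjusted p = 0.00593, edgeR). In propofol controls it was at 39.6, 41.6, 38.3 and 41.8 CPM and in Propofol+sepsis at 111, 135, 70.5 and 99.2 CPM, an increase of 1.36 (SE 0.166, adjusted p = 0.000247, edgeR). Neither anesthetic gave overlapping groups, and library 11 was the lowest septic library under propofol. Pdia5, a protein disulfide isomerase family member, was at 35.5, 40.5, 78.8 and 88.6 CPM in libraries 1 to 4 against 28.3 to 36.7 CPM in isoflurane controls, so that library 1 lay within the controls. Its log2 fold change was 0.90 (adjusted p = 0.0272), and 0.74 without library 3, where the call was lost (adjusted p = 0.0682). Under propofol it rose by 0.69 (adjusted p = 0.000380). The other 4 disulfide genes (P4hb, Pdia3, Pdia4 and Pdia6) rose under propofol by 0.25 to 0.37, and ranged from 0.09 to 0.31 under isoflurane without passing the test.

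**Figure D2:**
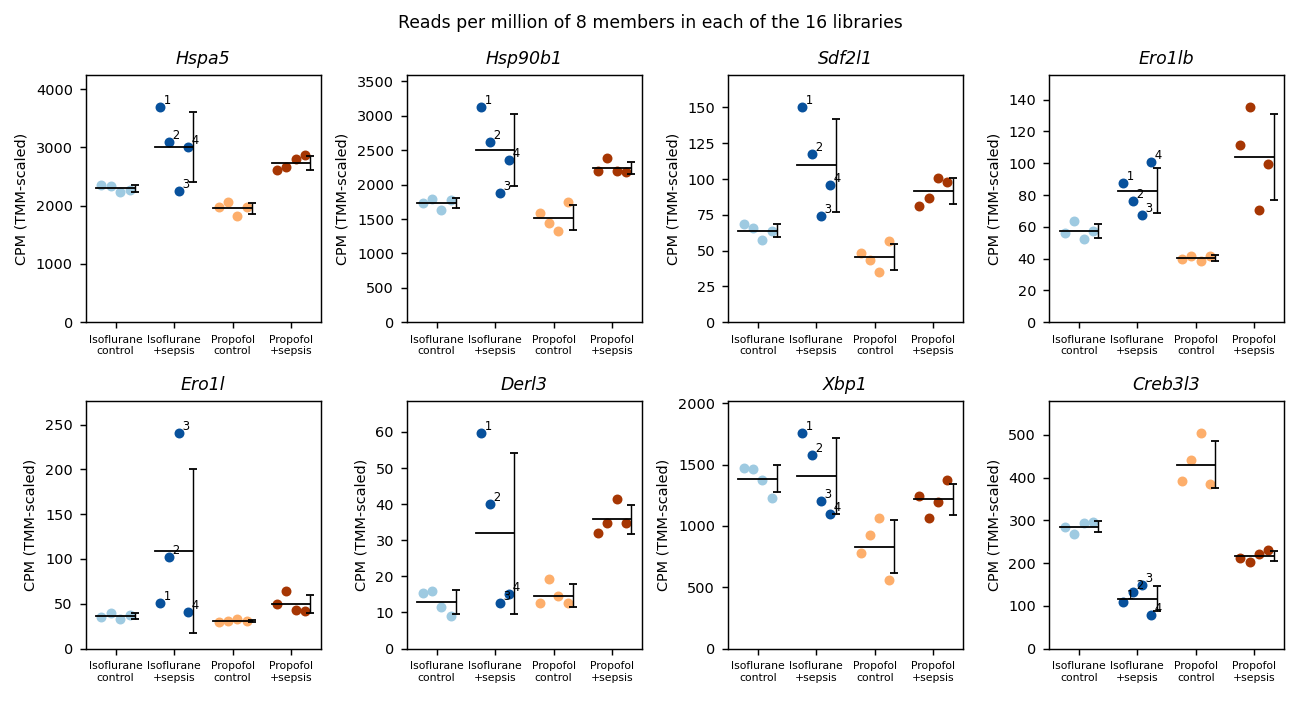
CPM (vertical axes, from 0) of 8 genes in each of the 16 libraries by group (horizontal axis). Points are libraries, horizontal lines group means and bars SD, n = 4 per group, with Isoflurane+sepsis libraries numbered. Library 3 is the lowest of its group for Hspa5, Hsp90b1, Sdf2l1, Ero1lb and Derl3 and the highest for Ero1l at 240.5 CPM, while Creb3l3 is below controls in every septic library.

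The sensors and factors did not move as 1 group. Eif2ak3, which encodes PERK, the kinase that slows translation, was at 46.1, 46.7, 44.5 and 46.6 CPM in isoflurane controls and at 73.8, 82.9, 98.5 and 77.0 CPM in libraries 1 to 4. Under propofol it was at 28.1, 29.8, 29.4 and 30.9 CPM in controls and at 47.2, 53.3, 48.4 and 45.8 CPM after sepsis. Groups were separate in both anesthetics, and Eif2ak3 rose by 0.86 (SE 0.101, adjusted p = 0.000290, edgeR) and by 0.71 (SE 0.0655, adjusted p = 6.76e-05).

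Creb3l3 encodes CREBH, a liver-enriched transcription factor held in the ER membrane that drives genes of lipid metabolism and the acute-phase response. It was at 284, 267, 295 and 296 CPM in isoflurane controls and at 110.0, 132, 148 and 78.4 CPM in libraries 1 to 4, less than in any control. In propofol controls it was at 392, 442, 504 and 385 CPM and in Propofol+sepsis at 213, 203, 221 and 229.8 CPM. It fell by 1.28 (SE 0.178, adjusted p = 0.000603, edgeR) under isoflurane and by 1.00 (SE 0.0907, adjusted p = 6.44e-05) under propofol on the log2 scale, the only one of the 56 genes that fell in both. The exact two-sided permutation test of the mean CPM gave p = 0.0286 for this gene in both anesthetics, the smallest that 4 libraries against 4 allow. By the same exact test, 7 of the 14 genes called higher under isoflurane were above 0.05, with p = 0.0571 for Edem3 and Pdia5, 0.0857 for Hyou1 and Sec11c, 0.114 for Hspa5 and Syvn1, and 0.171 for Derl3, and none of the 40 called higher under propofol was.

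Xbp1, the UPR transcription factor that IRE1 activates by splicing, was at 1470.4, 1463, 1377 and 1231 CPM in isoflurane controls and 1758, 1581, 1200.0 and 1094 CPM in libraries 1 to 4. Septic libraries lay on both sides of the controls, with a log2 fold change of 0.02 (adjusted p = 0.902, edgeR). Under propofol Xbp1 went from 776, 925, 1062 and 557 CPM to 1241, 1063, 1197 and 1372 CPM and rose by 0.55 (SE 0.170, adjusted p = 0.0270), a call that was lost without library 9, 12 or 13. Counts per gene do not separate spliced from unspliced Xbp1. Ern1 was at 31.0, 48.5, 77.4 and 46.9 CPM in libraries 1 to 4 against 32.7 to 39.5 CPM in controls (log2 fold change 0.54, adjusted p = 0.0906) and at -0.15 under propofol (adjusted p = 0.251). Atf6 rose under propofol by 0.24 (adjusted p = 0.0279) and was at 0.22 under isoflurane (adjusted p = 0.0607).

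Of the 8 ERAD genes, Edem3, Syvn1 and Derl3 rose in both anesthetics, Edem2 and Vcp under propofol alone by the call, and Derl1, Herpud1 and Sel1l in neither. Derl3, a derlin of the retrotranslocation channel, was at 59.7, 40.1, 12.5 and 15.2 CPM in libraries 1 to 4 and at 15.3, 15.99, 11.4 and 8.89 CPM in isoflurane controls. Libraries 1 and 2 were far above the controls and libraries 3 and 4 within their range, so the log2 fold change of 1.31 (SE 0.468, adjusted p = 0.0427, edgeR) became 0.82 (adjusted p = 0.111) without library 1. Under propofol Derl3 was at 32.1, 34.9, 41.4 and 34.8 CPM after sepsis and at 12.5 to 19.2 CPM in controls, with a log2 fold change of 1.28 (SE 0.141, adjusted p = 0.000158). Derl3 is also abundant in plasma cells. Of the other 7 plasma and B cell markers only Sdc1, which hepatocytes also make, exceeded 1 CPM in any library. Sdc1 was at 44.6, 87.9, 163 and 159.98 CPM in libraries 1 to 4 and at 54.5 to 70.5 CPM in isoflurane controls. Under propofol it was at 41.2 to 72.1 CPM after sepsis and 60.3 to 71.1 CPM in controls. The part of plasma cells in the level of Derl3 was not tested.

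Edem3, a mannosidase that tags glycoproteins for disposal, was at 117, 94.3, 75.8 and 97.3 CPM in libraries 1 to 4 against 69.3 to 86.9 CPM in controls (0.35, SE 0.126, adjusted p = 0.0419, edgeR). Under propofol it was at 93.6, 104, 92.1 and 79.0 CPM against 43.9 to 51.6 CPM (0.95, SE 0.0917, adjusted p = 9.24e-05). The groups were apart under propofol and overlapped under isoflurane through library 3. Syvn1, the HRD1 ubiquitin ligase, rose by 0.41 (adjusted p = 0.0437) and by 0.67 (adjusted p = 3.89e-05). Its membrane partner Sel1l did not pass in either anesthetic (-0.25, adjusted p = 0.264, and 0.05, adjusted p = 0.465). Vcp, the ATPase that pulls chains from the membrane, rose by 0.18 under propofol (adjusted p = 0.0225).

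Among the genes of entry and glycosylation, calls were fewer than among those of folding and control. Sec61a1, the pore of the translocon, was at 979, 777, 576.5 and 741 CPM in libraries 1 to 4 and at 692 to 781 CPM in isoflurane controls, with library 1 above and library 3 below all controls (log2 fold change 0.07, adjusted p = 0.706, edgeR). Under propofol it rose by 0.30 (SE 0.0638, adjusted p = 0.00427), from 653 ± 11.6 to 809 ± 60.8 CPM. The translocon-associated genes Ssr1, Ssr2, Ssr3 and Ssr4 rose under propofol by 0.18 to 0.49, with Ssr3 the widest (adjusted p = 0.000219), and none passed under isoflurane. Sec62, which serves post-translational entry, was below all controls in all Isoflurane+sepsis libraries without passing the test (-0.18, adjusted p = 0.0627).

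Sec11c, a catalytic subunit of signal peptidase, was at 63.9, 51.5, 44.9 and 66.7 CPM in libraries 1 to 4 against 40.0 to 47.8 CPM in controls (0.37, SE 0.124, adjusted p = 0.0350, edgeR) and rose by 0.70 under propofol (SE 0.0837, adjusted p = 0.000239). It was the only one of the 24 entry and glycosylation genes that rose in both anesthetics. Srp68, a protein subunit of the signal recognition particle, was at 95.6, 89.2, 80.4 and 81.3 CPM in libraries 1 to 4, below its controls at 97.6 to 102 CPM, and fell by 0.21 (SE 0.0698, adjusted p = 0.0357). Under propofol it was at -0.02 (adjusted p = 0.812). Rpn1, the ribophorin subunit of oligosaccharyltransferase, was at 0.05 (adjusted p = 0.768) and 0.07 (adjusted p = 0.390).

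The 12 genes with ERSE or ERSE-II in the promoter had a median log2 fold change of 0.39 under isoflurane, and 6 of them rose. The 36 genes with a promoter entry but neither element had a median of 0.04, with 7 rises and 2 falls. Of all genes tested, 25.7% rose and 24.4% fell. Under propofol 11 of the 12 rose, all but Herpud1, with a median of 0.55, beside 23 rises, 1 fall and a median of 0.22 among the 36. Of all genes tested, 20.4% rose and 21.7% fell. The 8 genes without a promoter entry had a median of 0.26 with 1 rise under isoflurane, and 0.28 with 6 rises under propofol. The 12 ranged from 0.02 (Xbp1) to 1.31 (Derl3) under isoflurane. None of the 12 is an entry or glycosylation gene, so window and role were not separated. These counts describe the genes by their windows, and no test was made of the difference.

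Spread between libraries differed between the groups. The median coefficient of variation of the 56 genes was 19.98% in Isoflurane+sepsis and 4.61%, 5.25% and 5.68% in isoflurane controls, propofol controls and Propofol+sepsis. Over all genes tested it was 16.9%, 6.87%, 10.2% and 10.8% in the same order, so the 56 genes were steadier than most in 3 groups and not in Isoflurane+sepsis. Averaged over the 56 genes, the log2 ratio to the control mean was 0.42, 0.21, -0.09 and 0.10 in libraries 1 to 4 and 0.32, 0.32, 0.37 and 0.39 in libraries 9 to 12. Library 1 was the highest of its group for 48 of the genes and library 3 the lowest for 48. The share of reads on the 56 genes was 2.77%, 2.30%, 1.76% and 2.17% in libraries 1 to 4, between 1.94% and 2.10% in isoflurane controls, and 2.42 ± 0.0671% against 1.97 ± 0.0451% under propofol (SD, n = 4 each).

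Library 3 was not low throughout. It was below the lowest control for 36 of the 56 genes, and above the highest control for 9 (Hsp90b1, Dnajb9, Sdf2l1, Creld2, Pdia5, Ero1l, Ero1lb, Ern1 and Eif2ak3). Ero1l, Ern1, Eif2ak3 and Creb3l3 were at their highest of the group in library 3. Of the entry and glycosylation genes, library 3 was the lowest of its group for 23 of 24. This library also had the largest share of reads outside genes (25.4%, against 21.6% in the lowest library) and the smallest share of ambiguous reads (1.07%), and 163 CPM of Sdc1. Library 4 was close to it in each, at 24.5%, 1.08% and 159.98 CPM. It was above the control mean for 35 of the 56 genes, and library 3 for 13. The part of these in the result was not tested.

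**Figure D3:**
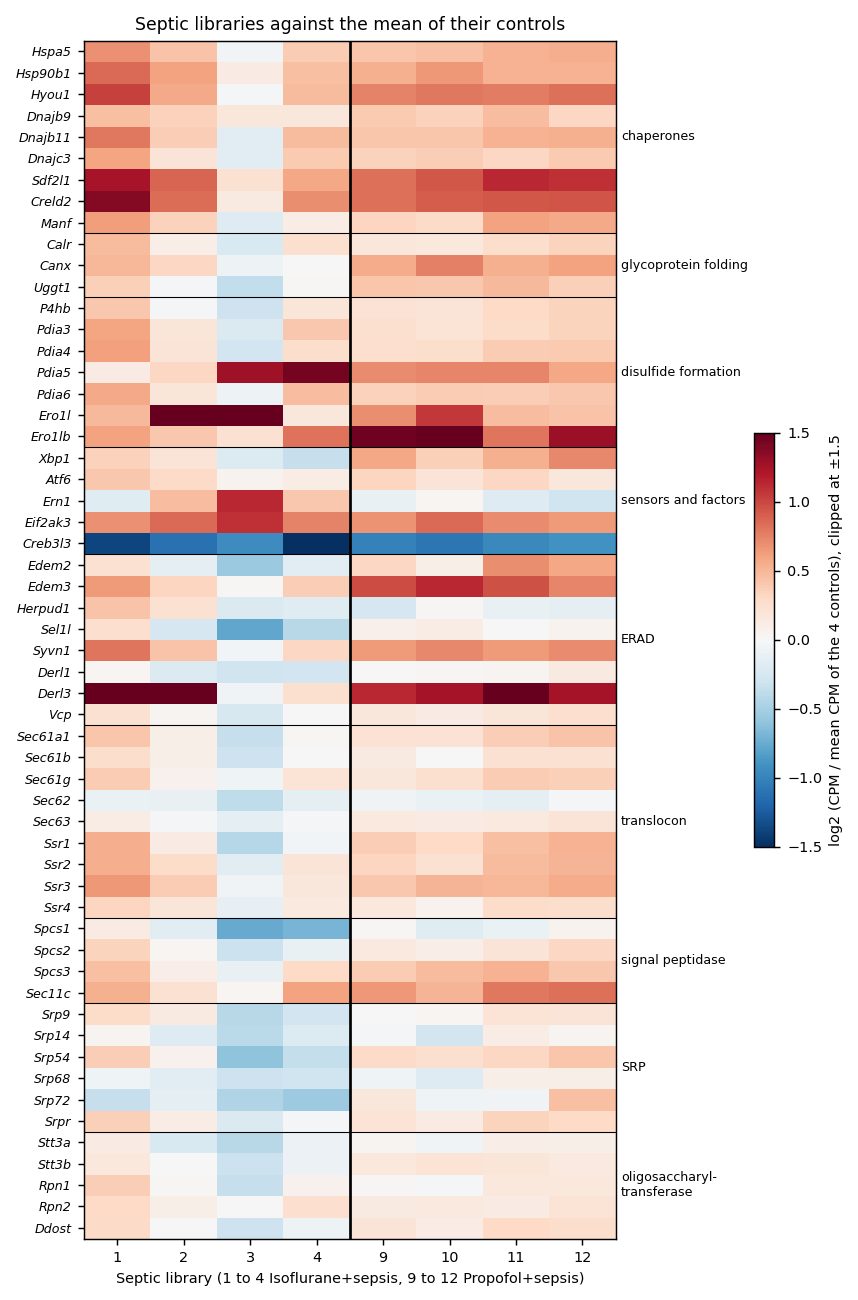
Log2 ratio of each septic library (horizontal axis) to the mean of the 4 controls of its anesthetic, for the 56 genes by role (vertical axis), red above and blue below the controls, with colours clipped at 1.5. Libraries 9 to 12 are above the control mean for 48 to 52 of 56 genes, library 1 above the control mean for 51 and library 3 for 13.

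The number of genes called under isoflurane depended on the libraries. Leaving out library 3, 26 rose and 1 fell (23.8% and 22.5% of all genes), 14 of the 16 original calls being among these 27, and the genes gained included Dnajb11, Dnajc3, Manf, Calr, Atf6, Pdia3, Pdia4, Pdia6 and the translocon genes Ssr2, Ssr3 and Ssr4. Without library 1, 10 rose and 7 fell (28.2% and 26% of all genes). Without library 2 or 4 there were 11 and 13 calls, and without control library 5, 6, 7 or 8 there were 8, 6, 7 and 7, where 39.7% to 50.1% of all genes were called in either direction in these 6 fits. Hspa5, Syvn1 and Derl3 lost their calls without any 1 of libraries 1, 2, 5, 6, 7 and 8, Edem3 without 1, 2, 4, 5, 6 or 8, and Srp68 without 3, 4, 5, 6, 7 or 8. Hyou1 lost its call without library 2, 5, 6, 7 or 8, Pdia5 without 3, 4, 5, 6 or 7, Sec11c without 1, 4, 6, 7 or 8, Ero1l without 5, 6, 7 or 8, and Dnajb9 without 2, 6, 7 or 8. Of the 16 calls, 6 were made under each of the 16 alternatives run (Hsp90b1, Sdf2l1, Creld2, Ero1lb, Eif2ak3 and Creb3l3), as were 27 of the 41 propofol calls.

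The difference between the responses was tested as the interaction of anesthetic and sepsis over all 16 libraries. None of the 56 genes passed (edgeR quasi-likelihood test), where 2.72% of 10621 genes passed, 1.06% with a negative and 1.66% with a positive difference. An unadjusted p below 0.05 was found for 9 of the 56 (16.1%) and for 23.1% of all genes, and DESeq2 called 2 of the 56 (3.57%) and 8.01% of all genes. The median difference, isoflurane minus propofol, was -0.17 on the log2 scale, against -0.02 for all genes tested. Of the 56 genes 48 were below 0, that is with the higher fold under propofol, where 5506 of all 10621 genes were. Ero1lb came nearest, at -0.84 (SE 0.220, 95% interval -1.32 to -0.36, adjusted p = 0.0537), followed by Edem3 at -0.60 (interval -0.97 to -0.23, adjusted p = 0.0658). Canx was at -0.41 (interval -0.73 to -0.08, adjusted p = 0.122) and Xbp1 at -0.53 (interval -1.07 to 0.0051, adjusted p = 0.210).

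For the leading chaperones the interval of the difference included 0, at -0.42 to 0.23 for Hspa5, -0.40 to 0.34 for Hsp90b1 and -0.65 to 0.50 for Creld2. Ero1l and Ern1 were above 0, at 0.90 (interval -0.29 to 2.09) and 0.67 (interval 0.08 to 1.26, adjusted p = 0.157). Without library 1, 13 of the 56 genes passed (23.2%, where 15.1% of all genes did), 12 with a negative difference and Ern1 with a positive one. The median difference of the 56 genes was then -0.28, against -0.03 for all genes. Without library 3 this median was -0.08, against -0.0083 for all genes, and none of the 56 passed, where 0.973% of all genes did. Without library 4 or without library 11 there was 1 call each, where 3.5% and 1.29% of all genes passed. In simulated data with the same spread in every group, the interaction test found 18.8% of 1.5-fold and 67.6% of 2-fold differences. The wider spread of Isoflurane+sepsis was not simulated, so these shares may not hold for the real libraries.

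The anesthetics were also set side by side in control liver and in septic liver. These comparisons use the same libraries as those of sepsis against control. In control liver 26 of the 56 genes were higher under isoflurane and 3 (Creb3l3, Vcp and Srp14) were lower, where 21.6% and 21.7% of 10314 genes were. The median log2 difference, isoflurane minus propofol, was 0.15, against -0.00049 for all genes. Scaling by library totals only moved the median of all genes to -0.15 and that of the 56 genes to 0.0073. It left 11 of the 56 genes higher and 10 lower, where 11% and 37.1% of all genes were. In the same comparison 7 of 10 hepatocyte markers were higher under isoflurane and 1 lower (median log2 difference 0.35), and 4 of 8 Kupffer cell and 5 of 10 neutrophil and monocyte markers were lower (medians -0.40 and -0.40), and their part in the difference was not tested. The libraries did not overlap for 27 genes that were higher and 3 that were lower, where 20.4% and 20% of all genes did not.

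Pdia5 had the widest difference in control liver, at 34.3, 31.3, 28.3 and 36.7 CPM under isoflurane and 14.2, 14.4, 14.4 and 11.3 CPM under propofol. All isoflurane controls were above all propofol controls, a log2 difference of 1.27 (SE 0.0987, adjusted p = 1.11e-05, edgeR). Xbp1 (0.74, adjusted p = 0.00350), Edem3 (0.66, adjusted p = 0.000170), Eif2ak3 (0.64, adjusted p = 1.05e-05), Ero1lb (0.51, adjusted p = 0.000151), Sdf2l1 (0.48, adjusted p = 0.00889) and Syvn1 (0.45, adjusted p = 4.41e-05) followed. Hspa5 was higher by 0.23 (adjusted p = 0.00285). Creb3l3 was at -0.59 (adjusted p = 0.000280). Of these, all but Hspa5 and Sdf2l1 were called under each of the 16 alternatives.

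In septic liver 2 of the 56 genes were higher under isoflurane and 2 lower, where 10.6% and 8.66% of 10272 genes were (19.3% in either direction). Scaling by library totals only gave 2 higher and 5 lower, where 5.8% and 21.1% of all genes were. It moved the median of all genes from -0.01 to -0.16. Pdia5 was at 60.8 ± 26.8 CPM in Isoflurane+sepsis and 21.9 ± 1.13 CPM in Propofol+sepsis (1.47, SE 0.284, adjusted p = 0.0156, edgeR), and Eif2ak3 at 83.1 ± 10.96 and 48.7 ± 3.26 CPM (0.77, adjusted p = 0.00656). Creb3l3 was at -0.89 (adjusted p = 0.0160) and Vcp at -0.35 (adjusted p = 0.0414). The median difference was -0.02. Without library 1 there were 8 calls (27.7% of all genes), and without library 9, 11 or 12 there was 1, that of Eif2ak3 (2.78%, 3.02% and 2.41% of all genes). Of the markers, 3 of 10 hepatocyte genes were higher and 1 lower under isoflurane. Among the others 4 of 6 endothelial genes were lower and 1 of 8 Kupffer cell genes was higher.

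**Figure D4:**
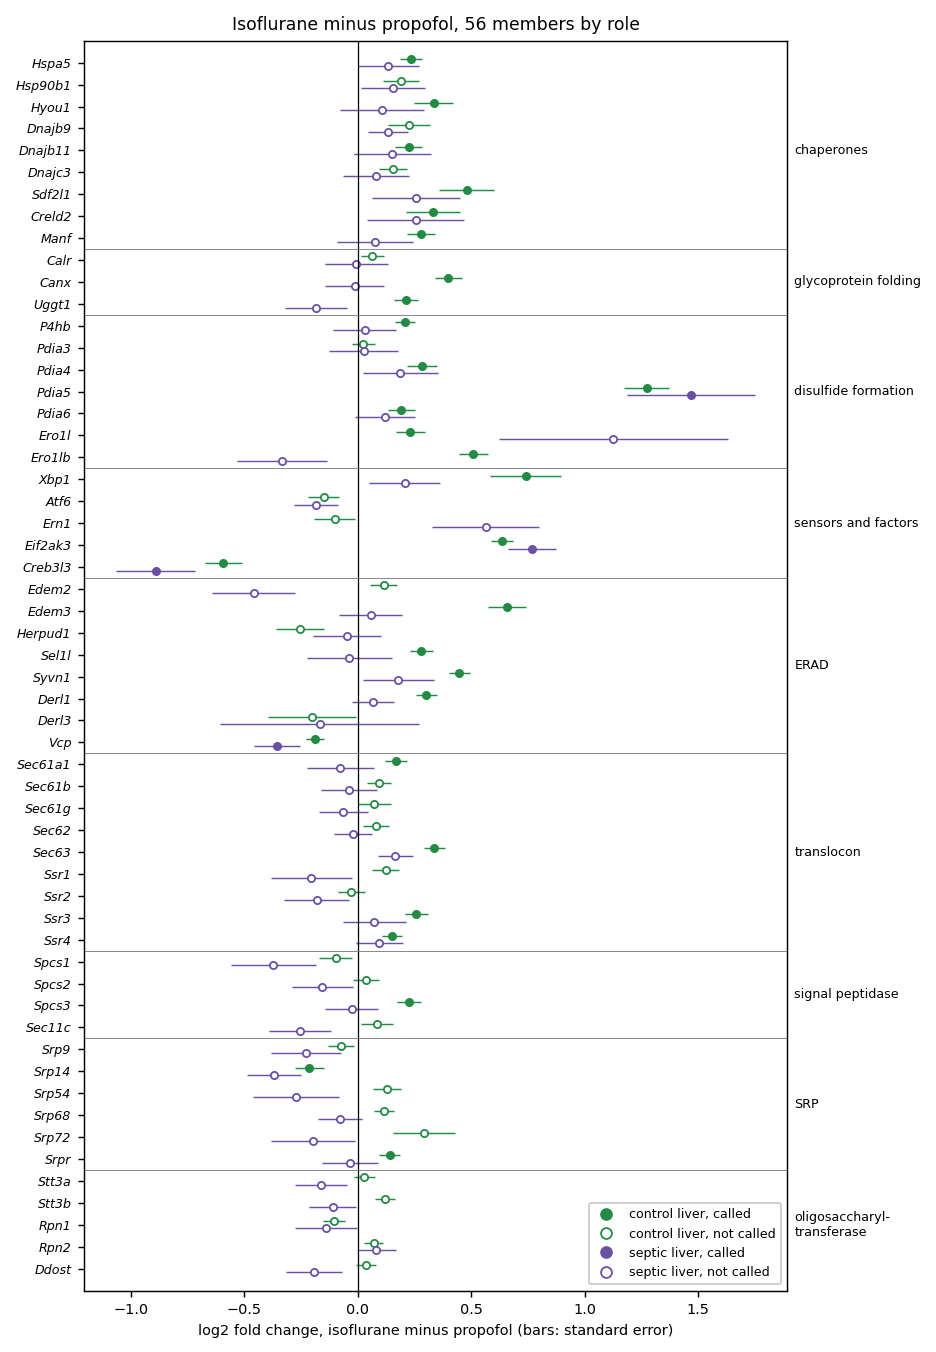
Log2 difference, isoflurane minus propofol (horizontal axis), of the 56 genes by role (vertical axis), in green for control liver and in purple for septic liver. Filled points passed an adjusted p of 0.05 and bars are standard errors. Control liver has 26 filled points above 0 and 3 below, septic liver 2 and 2, and Pdia5, Eif2ak3, Creb3l3 and Vcp are filled in both.

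Other genes of the pathway were counted in 6 further lists, of which 159 genes passed the filter. Under isoflurane 24 of them rose and 34 fell (15.1% and 21.4%, where 25.7% and 24.4% of all genes did, median log2 fold change -0.04). Under propofol 58 rose and 9 fell (36.5% and 5.66%, where 20.4% and 21.7% of all genes did, median 0.11). In the interaction 7 of the 159 passed, where 2.72% of all genes did, with Ddit3 (1.11) and Trib3 (1.49) above 0 and Sec23a (-0.81), Copg2 (-0.67), Yod1 (-0.97), Mpi (-0.64) and Alg10 (-0.83) below 0 on the log2 scale. Other contrasts between the anesthetics in these lists are separate counts with no test of the difference. Of 18 further UPR regulators 7 rose in each anesthetic (38.9%) and 1 fell (5.56%). The risers under isoflurane were led by Atf4 (0.66, adjusted p = 0.00127, edgeR), the transcription factor translated when PERK is active. Its target Ddit3 followed (1.43, adjusted p = 0.00148). COPII and COPI coats carry cargo out of and back to the ER. Of their 41 genes 2 rose and 11 fell under isoflurane (4.88% and 26.8%). Under propofol 16 rose and 4 fell (39.0% and 9.76%). The coat gene Copg2 fell in both (-1.31, adjusted p = 0.000218, and -0.64, adjusted p = 0.000294).

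Of all genes tested, 25.7% rose and 24.4% fell under isoflurane, and 20.4% rose and 21.7% fell under propofol. Of 27 genes that build the glycan precursor, 3 rose and 10 fell under isoflurane (11.1% and 37.0%). Under propofol 8 rose and 3 fell (29.6% and 11.1%). Gfpt1, the entry enzyme of hexosamine synthesis, rose by 0.84 under propofol (adjusted p = 0.000287, edgeR). Of 22 further ERAD genes 5 rose and 5 fell under isoflurane (22.7% each), and 9 rose and 1 fell under propofol (40.9% and 4.55%). Herpud2 was higher in both (0.65, adjusted p = 0.000324, and 0.67, adjusted p = 0.000146, edgeR). Of 29 further folding genes 5 rose and 5 fell under isoflurane (17.2% each) and 11 rose under propofol (37.9%). Txndc12, a thioredoxin-like ER protein, was higher in both (1.11, adjusted p = 0.00201, and 0.77, adjusted p = 0.000414, edgeR). Of 22 further targeting and translocation genes 2 rose and 2 fell under isoflurane (9.09% each). Under propofol 7 rose (31.8%), among them Dad1 of oligosaccharyltransferase (0.40, adjusted p = 0.00196, edgeR).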

How the data were processed

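Each of the 16 liver libraries was grouped by anesthetic and by sepsis or control as labelled (polyadenylated RNA, strand kept, single-end). The authors deposited raw counts, whole numbers of reads for each of 17055 gene symbols, without normalization. The submitters' processing notes name STAR and rn5, with the counting program and annotation not given in the sources used here. Promoter positions are on GRCr8 and were not converted. Entries for reads outside genes (21.6% to 25.4%) and ambiguous reads (1.07% to 1.35%) were left out. Libraries of a group differed by a chi-square per degree of freedom of 3.47 or more, so none was a copy of another. This value cannot show whether libraries were prepared from the same RNA.

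Genes were filtered with filterByExpr (minimum count 10, minimum total 15), scaled by TMM and fitted with edgeR 4.0.16 in R 4.3.3 by its quasi-likelihood test, with Benjamini-Hochberg adjustment over all genes tested. Each comparison of 4 against 4 libraries had its own fit, and the interaction used all 16. Standard errors were derived from the log2 fold change and the F statistic. Exact two-sided permutation tests of mean CPM were made with scipy 1.17.1. Alternatives were RLE size factors, library totals, DESeq2 1.42.0, limma-voom (limma 3.58.1), no filter, a filter at mean CPM 1, thinning all libraries to the lowest depth, 1 fit over all 16 libraries, and leaving out each library. The fit was tested on simulated data with 200 changed genes per comparison. It found 36.2% of 1.5-fold and 82.2% of 2-fold changes under isoflurane, and 57.6% and 87.3% under propofol. The simulation gave each gene the same spread in every group and changed far fewer genes than were called. These shares may therefore not hold for the real libraries.

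The genes, lists and tests were chosen with earlier results of these data known, so no list was tested and no p was adjusted over a list alone. Genes always named were Hspa5, Hsp90b1, Xbp1, Creb3l3, Dnajb9, Sec61a1 and Rpn1. Of the 56, the 10 called genes with the largest absolute log2 fold change in each anesthetic, and any called in the interaction, were named as well. Other genes named were chosen after their values were seen. From each list of other pathway genes, names come from the 3 smallest adjusted p. A check of the ER-retention tail of the proteins was not run, for want of a protein table.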

Additional observations from a re-analysis of the deposited data

Results flagged for a closer look

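In each group of 4 libraries, the gap between the highest or lowest library and its nearest neighbour was compared with the whole range of the group (Dixon's test), for 56 genes in 4 groups. Of the 224 sets 3 stood out (1.34%), where chance alone gives about 1 in 20. Hsp90b1 was at 2380.4 CPM in Propofol+sepsis library 10, above the other 3 libraries at 2190.0 to 2202 CPM. Pdia5 was at 11.3 CPM in propofol control library 16, below 14.2 to 14.4 CPM in the others. Pdia5 was also at 20.3 CPM in Propofol+sepsis library 12, below 22.3 to 22.7 CPM. None of the 3 lies in Isoflurane+sepsis, and each value stays on its group's side of the comparison with control or sepsis.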

How the results depend on the processing

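No paired analysis was possible because the labels number the libraries 1 to 16 without repeating a number across groups. With all 16 libraries in 1 fit, 25 of the 56 genes were called under isoflurane (44.6%, where 54.4% of all genes were). Leaving out each library gave 6 to 27 (39.7% to 54.2% of all genes), against 16 as reported (28.6%, where 50% were). Under propofol 30 were called with all 16 libraries in 1 fit (53.6%, where 38.6% of all genes were). Library totals gave 35 (62.5%, where 42.3% were). Each library left out gave 35 to 44 (33.5% to 41.3% of all genes), against 41 (73.2%, where 42.1% were). The interaction gave 2 with DESeq2 (8.01% of all genes) and 0 to 13 with each library left out (0.504% to 15.1%), against 0 (2.72%). Control liver gave 10 with all 16 libraries in 1 fit (17.9%, where 26.3% of all genes were called), against 29 (51.8%, where 43.3% were). The median difference of the 56 genes there was 0.0073 with library totals, against 0.15. Septic liver gave 7 with library totals (26.9% of all genes) and 9 with all 16 libraries in 1 fit (38.6%). With each library left out it gave 1 to 8 (2.41% to 27.7%), against 4 (19.3%). The cause of these shifts was not tested.

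Of the genes of the naming rule, those whose sign changed were not called in the comparison concerned. Among the called genes outside it, Srpr, called higher in control liver (0.14), was at -0.0049 with library totals. Under isoflurane, library totals put Rpn1 at -0.018 and Xbp1 at -0.042, and Xbp1 was at -0.0042 without the filter. With each library left out, Rpn1 ran from -0.067 to 0.15, Xbp1 from -0.092 to 0.13 and Sec61a1 from -0.064 to 0.17. In the interaction Derl3 was at -0.20 with limma-voom and -0.059 on thinned counts. With each library left out it ran from -0.47 to 0.30, Creld2 from -0.32 to 0.097, Hsp90b1 from -0.16 to 0.083, Hspa5 from -0.21 to 0.021, Rpn1 from -0.15 to 0.078 and Pdia5 from -0.033 to 0.39. Library totals put Sec11c at -0.060 in control liver, and Dnajb9 at -0.011, Edem3 at -0.089, Hspa5 at -0.012 and Hyou1 at -0.037 in septic liver. There, with each library left out, Edem3 ran from -0.053 to 0.16, Hyou1 from -0.087 to 0.26, Derl3 from -0.67 to 0.10 and Sec61a1 from -0.22 to 0.038. Thinning all libraries to the lowest depth left the interaction at 0 calls.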
